A study of Mus musculus with 2 samples.

Results

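Cytosolic ribosomal protein genes were described in single cells of mouse small intestinal organoids, epithelial cultures that grow in gel and hold stem, absorptive and secretory cells. The genes were taken by symbol from the deposited gene list: 105 of 31053 genes had a symbol starting with Rpl, Rps or Rplp and a number, or were named Rpsa. From these, 9 names that mark pseudogenes, 10 names of ribosomal S6 kinases and 2 genes with fewer than 10 UMIs (unique molecular identifiers, each standing for 1 captured RNA molecule) over the kept cells were left out. The remaining 84 genes are called members: 50 Rpl or Rplp genes of the large subunit and 34 Rps genes with Rpsa. One of the 34, Rps19bp1, is a binding protein of Rps19 by its name and not a ribosomal protein. The genes left out for low counts, Rpl10l and Rpl39l, are testis paralogs and had 0 UMIs, which allows a level of up to 0.0487 CPM (UMIs per 1000000 UMIs) in the first barcode set defined below and 0.0587 CPM in the second.

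The study's title places it in intestinal repair, with melatonin and prostaglandin E2 acting on the regulator YAP. The labels list 1 control library and 1 melatonin-treated library, each from cells of 3 organoid lines mixed together at day 3 of culture. The labels give no strain, age or genotype of the donor mice and state the treatment without a dose. The matrix, gene and barcode files of the control and the melatonin sample were identical in 3 of 3 cases, so both hold the same matrix of 21806 barcodes. Its barcodes end in 1 (set 1) or 2 (set 2), and no label ties an ending to a treatment. The matrix was therefore treated as 1 sample, control and melatonin were not compared, and a ratio of set 2 to set 1 has no direction with respect to melatonin.

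A ribosome is built from a small subunit, which reads the mRNA, and a large subunit, which joins amino acids. Each subunit holds ribosomal RNA and many proteins, nearly all present once per ribosome, with the stalk proteins Rplp1 and Rplp2 as pairs on Rplp0. Messenger RNAs of ribosomal proteins start with an unbroken run of C and T bases at the 5′ end, the terminal oligopyrimidine motif, through which the mTOR pathway and La-related proteins control their translation and stability. In the intestinal crypt, dividing stem and progenitor cells are known for high ribosome production, and secretory and absorptive cells leave the cycle as they mature.

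Promoter windows were read from RefSeq (GRCm38.p6) for the members at either end of the enteroendocrine ratio described below, together with both stalk genes that had an entry. Each line gives the 60 bases from 30 before to 30 after the annotated start, 5′ to 3′ on the gene's strand. Capitals mark the longest unbroken run of C and T that touches the 10 bases on either side of the start. Among members at 50 CPM or more with an entry, Rpl12, Rps2, Rpl39 and Rps19 had the lowest ratios, and Rpl26, Rps28, Rps19bp1 and Rpl36al the highest. Rpl12 lies at chr2:32961682-32961741 on the plus strand, Rps2 at chr17:24720033-24720092 on the plus strand, Rpl39 at chrX:37085193-37085252 on the minus strand and Rps19 at chr7:24884562-24884621 on the plus strand. Rpl26 lies at chr11:68901536-68901595 on the plus strand, Rps28 at chr17:33824533-33824592 on the minus strand, Rps19bp1 at chr15:80264277-80264336 on the minus strand and Rpl36al at chr12:69184038-69184097 on the minus strand. Rplp0 lies at chr5:115559437-115559496 and Rplp2 at chr7:141447621-141447680, both on the plus strand.
Rpl12: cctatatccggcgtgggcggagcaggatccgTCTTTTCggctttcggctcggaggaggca
Rps2: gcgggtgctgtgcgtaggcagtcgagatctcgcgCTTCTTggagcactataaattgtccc
Rpl39: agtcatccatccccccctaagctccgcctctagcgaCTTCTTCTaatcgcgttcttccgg
Rps19: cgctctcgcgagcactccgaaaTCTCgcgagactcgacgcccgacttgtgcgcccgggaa
Rpl26: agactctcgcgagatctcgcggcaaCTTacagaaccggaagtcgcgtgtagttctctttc
Rps28: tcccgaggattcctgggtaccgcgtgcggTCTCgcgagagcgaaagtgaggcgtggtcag
Rps19bp1: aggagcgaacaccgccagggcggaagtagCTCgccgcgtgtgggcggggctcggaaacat
Rpl36al: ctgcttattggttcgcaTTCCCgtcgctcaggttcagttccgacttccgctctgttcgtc
Rplp0: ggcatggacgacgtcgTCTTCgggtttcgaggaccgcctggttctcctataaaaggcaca
Rplp2: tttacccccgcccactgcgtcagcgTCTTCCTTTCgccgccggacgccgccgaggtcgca

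Of the 84 members, 64 matched an entry, with 76 windows of 300 bases (250 before to 50 after the start). A C and T run of at least 8 bases at the start stood in 39.5% of the member windows and in 13.7% of all 32851 windows of the table. The letters CCGGAAG, the core bound by ETS family factors, were found on either strand in 34.2% of member windows and 8.86% of all windows. CTTTCC was found on either strand in 50% and 26.6%, and TATAAA in 9.21% and 13.6%. None of these motifs contains another, though CTTTCC can lie within a C and T run. The windows printed above show how far members differ: the run at the start of Rplp2 is 10 bases long and that of Rpl39 is 8, while Rpl26 and Rps19bp1 have runs of 3. Annotated starts can lie some bases away from the start used in these cells, and no start sites were measured. The 20 members with no matching entry include Rplp1, Rps20, Rpl32, Rps27a, Rps29, Rps14, Rpl30, Rpl17, Rpl8, Rpl36, Rpl7, Rpl21, Rpl3, Rpl23a and Rpl29.

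A barcode was kept as a cell if it had 500 or more genes, 1000 or more UMIs and no more than 20% of UMIs from mitochondrial genes, which left 4066 of 21806 barcodes, 2300 in set 1 and 1766 in set 2. They had medians of 29872 and 28759 UMIs. In the whole matrix 29 barcode sequences occurred in both sets, and among kept cells 0 did. There is 1 pool per set and no replicate, so no test was run, and each interval is a 95% interval for counting error only. All levels are 3′ UMI counts, which give about 1 tag per transcript end whatever its length, so they were not scaled by length. The ratios below were computed for 2403 genes at 50 CPM or more over all kept cells. These include 83 members, and Rpl3l did not reach that level.

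Ribosomal protein genes made up 30.1% of all UMIs in kept cells, and 35 of the 50 most abundant genes were members. Their median level was 3609 CPM, and 68 of the 84 lay between 2000 and 8000 CPM. Among the highest was the stalk protein Rplp1, with 8177 CPM in set 1 (interval 8154 to 8199) and 7416 CPM in set 2 (interval 7393 to 7440). Rpl23 at 6743 CPM, Rps12 at 6527 CPM and Rpl13 at 6510 CPM followed over both sets together. The order of members was nearly the same in both sets, with a Pearson r of 0.998 and a Spearman rho of 0.986 across 83 genes, which share cells, depth and library.

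A small group of 9 members stayed under 1000 CPM, and 5 of them are named as paralogs of another member. Rpl3l, known as the striated muscle form of Rpl3, had 11 UMIs in all, or 0.0974 CPM (interval 0.0357 to 0.212) in set 1 and 0.0978 CPM (interval 0.0318 to 0.228) in set 2. Rpl3 itself stood at 3174 and 2658 CPM. Rps19bp1 was at 60.2 and 66.3 CPM, Rpl7l1 at 83.5 and 88.6 CPM and Rps27rt at 136 and 121 CPM. Their partners were far higher: Rpl7 at 3466 and 3017 CPM and Rps27 at 2893 and 2922 CPM. Rps27l, a p53 target gene, was at 807 and 833 CPM and Rpl36al at 502 and 445 CPM, beside Rpl36a at 2012 and 1895 CPM. Rpl22l1, at 1407 and 1180 CPM, was the paralog closest to its partner, Rpl22 at 2276 and 1943 CPM.

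Many members have near-identical copies in the genome, between which reads can be split. In the GENCODE M21 transcripts, 25 members share some 60-base stretch of their last 500 bases with another gene of the deposited list, and 8 share at least 50% of such stretches. For Rpl10 the share was 92.0% with Rpl10-ps3, for Rps27rt 90.8% with Rps27 and for Rplp1 54.5% with Gm10073. The 8 members had a median of 1878 CPM and the other members of 3619 CPM. How reads matching several genes were counted is not given in the sources used here, so the levels of these 8 (Rpl10, Rps27rt, Rpl35, Rps12, Rps18, Rpl27, Rpl36a and Rplp1) are uncertain. Counting copies outside the deposited list too, 33 members share at least 50% of their stretches with another gene, with a median of 41.6% over all members, and their levels are uncertain to the extent that reads were lost to such copies. The low levels of Rpl35 (983 CPM), Rpl27 (693 CPM) and Rpl13a (419 CPM), which are single large subunit proteins, are to be read with this in mind; Rpl13a shares 40.6% of its stretches with Gm45713.

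**Figure D1:**
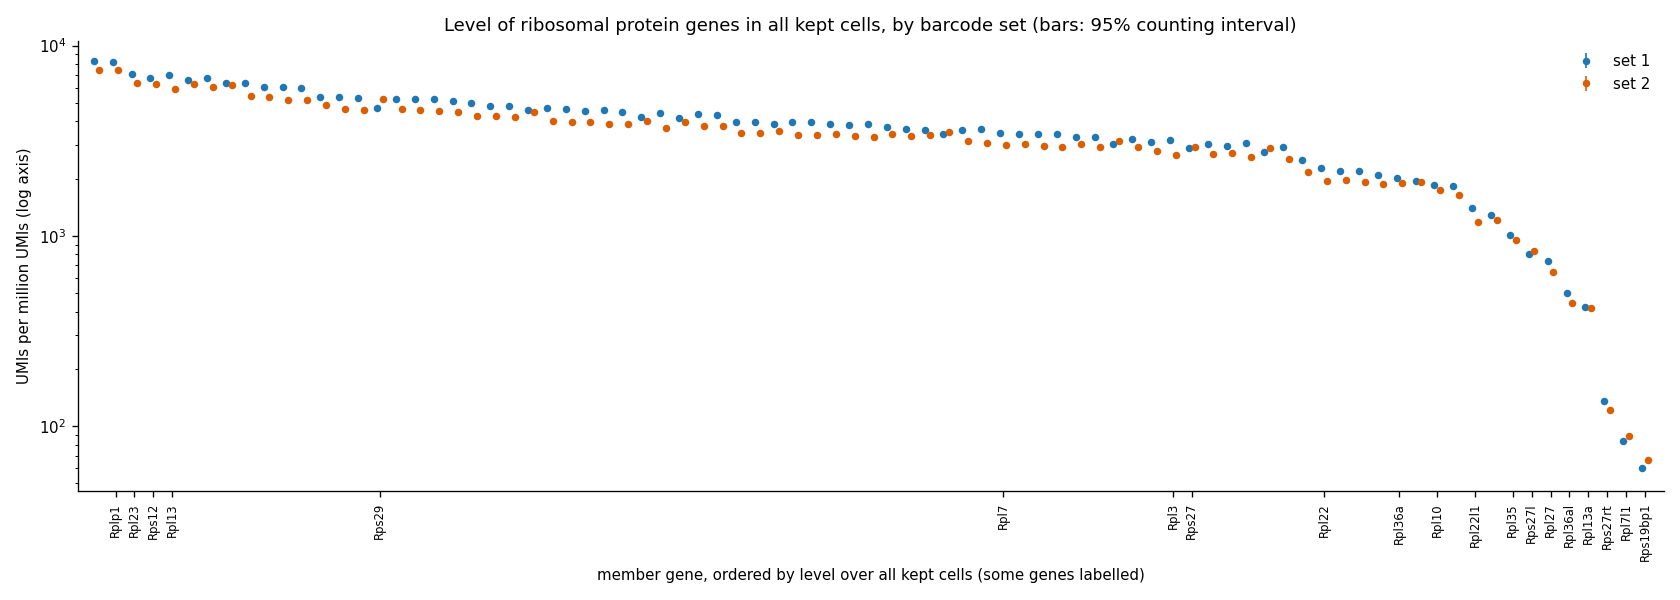
Level of 83 members (CPM, log axis) over all kept cells of set 1 (2300 cells) and set 2 (1766 cells), ordered by level, with some genes labelled; bars are 95% counting intervals, mostly smaller than the points, and Rpl3l (under 1 CPM) is not drawn. Most members lie within a factor of 4 of one another, and Rps27rt, Rpl7l1 and Rps19bp1 hold the lowest places drawn.

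Cells were grouped by markers, leaving members out of every marker list and out of the denominator. A gate needed 3 markers with a UMI and a summed marker level at or above a threshold, per 10000 UMIs counted without mitochondrial genes and members: 20 for enteroendocrine cells, 50 for enterocytes, 50 for goblet and Paneth cells, and 10 for tuft cells, for cells with injury-related genes such as Clu, Anxa1 and Ly6a (the revival gate), and for immune and mesenchymal cells. A gate is a range of a score and not a cell type. In the enteroendocrine gate were 245 cells (set 1) and 253 cells (set 2), with 0 cells in either set within 25% above its threshold and 36 and 8 cells within 25% below it. Chgb, a granule protein of hormone cells, was at 45107 and 38186 CPM inside it and at 48.8 and 45.6 CPM in ungated cells, a level that includes any free RNA in the droplets. The enterocyte gate held 673 and 298 cells but had 222 and 37 of them within 25% above the threshold, with 429 and 103 cells within 25% below it. Its median marker level also differed between the sets, at 73.9 and 318.5 per 10000. The goblet and Paneth gate held 39 and 18 cells, the revival gate 13 and 16 and the tuft gate 7 and 2, too few for ratios per gene. No cell passed the immune or the mesenchymal gate. In ungated cells, 1247 and 1118, the stem cell markers Lgr5, Ascl2, Smoc2, Axin2, Olfm4 and Rgmb summed to a median of 7.19 and 6.37 per 10000, against 2.03 and 1.79 in the enteroendocrine gate. In the enterocyte gate the median of these stem cell markers was 4.19 and 0.82 per 10000. A further 137 barcodes passed several gates, 88 of them the enteroendocrine gate with the goblet and Paneth gate, and were left out of all gates, and no doublet caller was run.

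Enteroendocrine-gated cells, which store and release hormones, carried less than 50% of the ribosomal protein share of ungated cells. In ungated cells members gave 34.2% of the UMIs in set 1 (34.19% to 34.22%) and 32.4% in set 2 (32.39% to 32.42%). In enteroendocrine-gated cells they gave 15.5% (15.46% to 15.53%) and 13.996% (13.96% to 14.03%), so that the ungated share was 2.21 and 2.32 times as high. Between cells, the 5th to 95th percentiles ran from 9.30% to 24.3% and from 8.09% to 22.2% in the gate, and from 19.8% to 39.1% and from 18.2% to 38.2% in ungated cells, so the groups overlap at their edges. With the marker genes of all gates taken out of the total, the ratios were 2.09 and 2.202.

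Depth and mitochondrial share moved with this difference. Enteroendocrine-gated cells had medians of 13783 and 14705 UMIs against 33036 and 31116 in ungated cells. Their median mitochondrial share was 7.26% and 6.79% against 9.33% and 9.07%. Among cells of 10000 to 20000 UMIs, the member share was 14.4% and 13.0% in the gate (183 and 164 cells) and 32.7% and 28.4% in ungated cells (79 and 125 cells), a ratio of 2.26 and 2.18. In this window the median mitochondrial share was 7.02% and 6.73% in the gate and 11.2% and 14.8% in ungated cells, and its part in the ratio was not tested. Counted per cell, the median was 1930 and 1845 member UMIs in the gate and 11493 and 10491 in ungated cells. Free RNA adds member UMIs to every droplet, and its part in these shares was not tested.

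Goblet and Paneth-gated cells, which are secretory too, had a member share of 32.9% in set 1 (32.77% to 32.96%) and 30.3% in set 2 (30.17% to 30.41%), near that of ungated cells. The ratio of the ungated to the goblet and Paneth share was 1.04 and 1.07. In revival-gated cells the share was 23.3% and 26.0%, with single cells between 11.7% and 36.9% in set 1 and between 9.90% and 40.8% in set 2. The 7 and 2 tuft-gated cells had 24.99% and 28.8%. Barcodes that passed several gates had 16.5% and 15.9%, close to the enteroendocrine gate that most of them also passed.

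**Figure D2:**
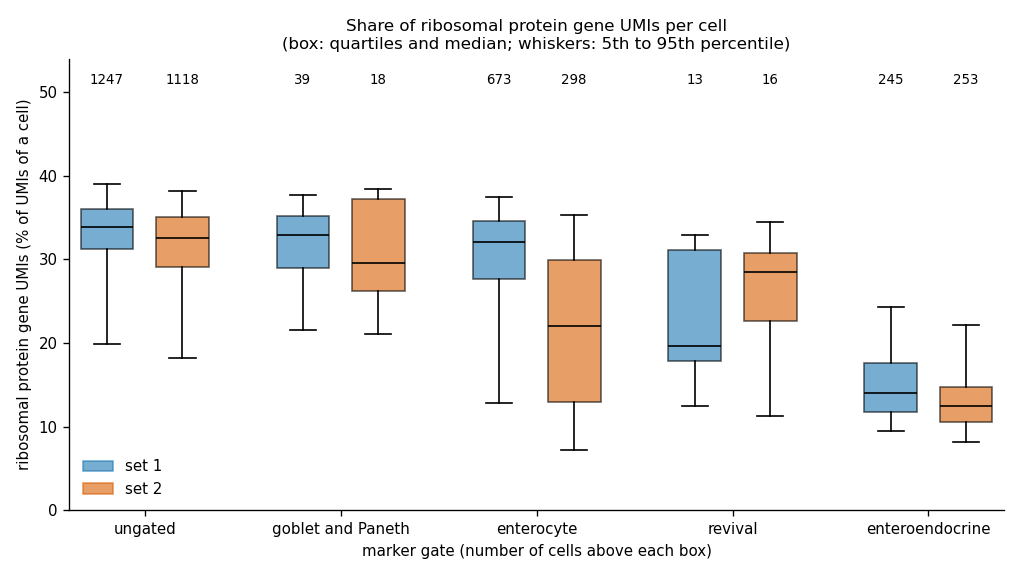
Ribosomal protein gene UMIs as a percentage of the UMIs of each cell (vertical axis) by marker gate and barcode set; boxes are quartiles with the median, whiskers the 5th to 95th percentile over cells, and the number of cells stands above each box. Enteroendocrine-gated cells lie lowest with medians of 13.99% and 12.5%, ungated cells highest with 33.9% and 32.6%, and the enterocyte gate of set 2 is the widest.

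Within the enteroendocrine gate the share was lower where the hormone cell markers were higher. Cells with 20 to 200 marker UMIs per 10000 had 21.1% and 16.4% member UMIs, and cells with at least 800 had 12.3% (12.24% to 12.34%) and 11.3% (11.23% to 11.33%). Since marker UMIs count in the total, the shares were also taken without them and were 13.4% and 12.4% in the top range. Cells with at least 2 UMIs of Neurog3, the factor that starts enteroendocrine differentiation and is lost in mature cells, had 17.7% in set 1 and 14.9% in set 2. Cells with 0 UMIs of Neurog3 had 13.4% and 13.8%.

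Every member that was measured was lower in enteroendocrine-gated than in ungated cells. The log2 ratio of CPM, taken with a pseudocount of 1 CPM, was below 0 for 83 of 83 members in each set, with a median of −1.12 in set 1 and −1.17 in set 2. Over all 2403 genes the medians were −0.13 and −0.21, and 54.8% and 58.0% of the genes lay below 0. At least 1.5-fold lower were 78 of 83 members in set 1, beside 31.6% of all genes, and 82 of 83 in set 2, beside 34.5%. None of the 83 was at least 1.5-fold higher, beside 25.3% and 21.3% of all genes.

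Rpl12, a protein at the base of the stalk, had the lowest ratio. In set 1 it stood at 5380 CPM (interval 5356 to 5404) in ungated and 1536 CPM (interval 1495 to 1577) in enteroendocrine-gated cells, and in set 2 at 5028 CPM (interval 5005 to 5052) and 1456 CPM (interval 1419 to 1494), a log2 ratio of −1.81 and −1.79. Rps2, a small subunit protein at the mRNA entry, went from 6733 to 1931 CPM and from 6285 to 1950 CPM (−1.80 and −1.69). Rpl39, which lines the exit tunnel of the large subunit, went from 4963 to 1561 CPM and from 5130 to 1521 CPM (−1.67 and −1.75). In each set the 2 values of these genes lay far outside each other's counting intervals.

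Of the members past 1.5-fold in both sets, Rpl19 (−0.60 and −0.70), Rpl38 (−0.68 and −0.71), Rpl37a (−0.64 and −0.75), all of the large subunit, and Rps26 (−0.65 and −0.81), a small subunit protein at the mRNA exit, had the smallest differences. A further 5 members, picked out after their values were seen, did not reach 1.5-fold in both sets. Rpl26, near the mouth of the exit tunnel, was at 4771 CPM in ungated and 3396 CPM in enteroendocrine-gated cells of set 1 and at 4293 and 2797 CPM in set 2 (−0.49 and −0.62). Rps28 had ratios of −0.46 and −0.63, Rpl10 of −0.49 and −0.64, Rpl36al of −0.42 and −0.37 and Rps19bp1, no ribosomal protein, of −0.39 and −0.62. Rpl36al was the single member under 1.5-fold in both sets. Rpl10 and Rpl36al are among the genes with near-identical copies: 92.0% and 47.2% of their 60-base stretches occur in another listed gene.

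The spread of these ratios over members was smaller than that of other abundant genes, and the ratios were alike in both sets. Their standard deviation was 0.30 in set 1 and 0.29 in set 2, against 1.39 and 1.58 over 62 other genes at 1000 CPM or more, with the markers that define the gates left out. By quartiles the gap was smaller: members ran from −1.29 to −0.93 and from −1.38 to −1.03. The 62 other genes ran from −0.87 to −0.03 and from −1.06 to −0.11. Their limit of 1000 CPM was taken over all kept cells, so genes high only in the enteroendocrine gate could enter. The ratios of the 2 sets had a Pearson r of 0.97 across 83 members, which are measured in the same cells and libraries within each set. Large subunit genes took 55.2% and 54.9% of the UMIs of the 83 ribosomal proteins in ungated cells, 56.2% and 56.2% in enteroendocrine-gated cells and 55.5% and 55.9% in the enterocyte gate. Across cells of at least 10000 UMIs, the shares of large and small subunit genes went together with r from 0.96 to 0.997 within the ungated, enteroendocrine and enterocyte gates of each set, 207 to 984 cells; both shares have the same total.

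The ratios were also set beside the promoter windows. The 29 measured members with a C and T run of at least 8 in a window had median enteroendocrine ratios of −1.15 and −1.19, and the 34 without had −1.03 and −1.08. With CCGGAAG (25 members) the medians were −1.06 and −1.03, and without (38 members) −1.09 and −1.20. Taking the longest run over a gene's windows, Rpl12, Rps2, Rpl39 and Rps19 at the low end have runs of 7, 6, 8 and 7 bases. Rps19 has 3 windows, and the one printed above has a run of 4. Rpl26, Rps28, Rps19bp1 and Rpl36al at the other end have runs of 3, 4, 3 and 5. These 8 genes were chosen by their ratios, so the difference is a description of 8 genes. Other members named above with small differences had both long and short runs. Rpl19, Rpl38 and Rps26 have runs of 11, 10 and 9, and Rpl10 and Rpl37a have runs of 3 and 3.

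**Figure D3:**
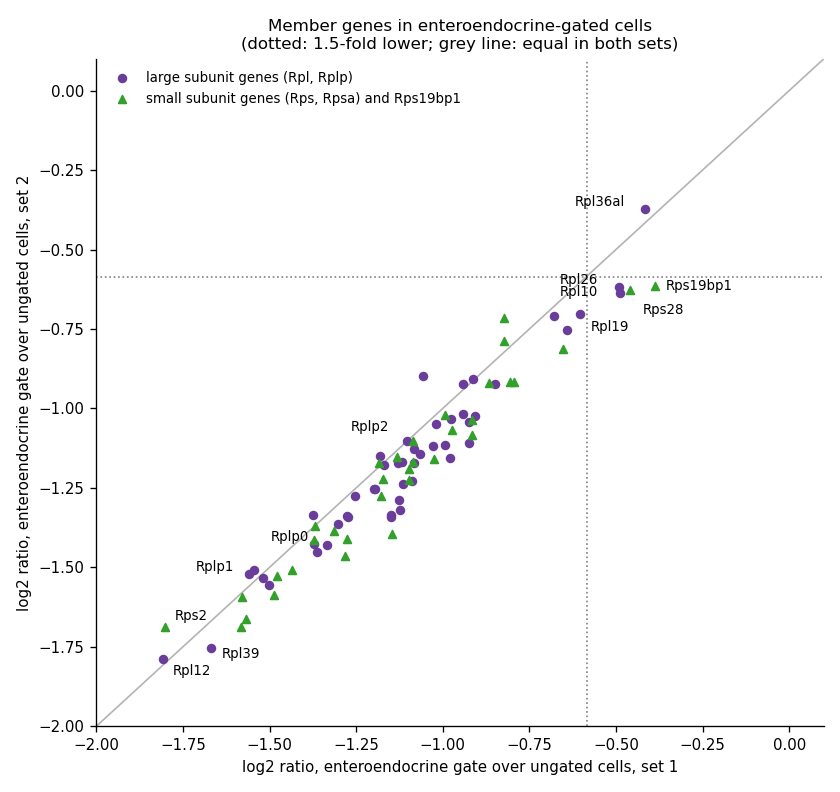
Log2 ratio of CPM in enteroendocrine-gated over ungated cells for 83 members, set 1 on the horizontal and set 2 on the vertical axis; circles are large subunit genes, triangles small subunit genes and Rps19bp1, and dotted lines mark 1.5-fold lower. All points lie below 0 on both axes and near the line of equality, from Rpl12 at −1.81 and −1.79 to Rpl36al at −0.42 and −0.37.

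Rplp1, the acidic stalk protein that takes part in recruiting elongation factors, differed from the other members between single enteroendocrine-gated cells. This gene was singled out after its values were seen. Among cells of at least 10000 UMIs its part of all member UMIs ran from 0.78% to 4.19% (5th to 95th percentile, 207 cells) in set 1 and from 0.82% to 4.42% (215 cells) in set 2. In ungated cells it ran from 2.27% to 3.01% (984 cells) and from 2.25% to 3.11% (973 cells). The variance of this part between cells was 13.2 and 12.1 times that of counting alone in the enteroendocrine gate, the highest value of any member there, and 2.202 and 2.58 times in ungated cells. The median over members was 1.58 and 1.57 in the gate and 1.79 and 2.21 in ungated cells.

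Its stalk partners did not show this spread. Rplp0, the stalk's base, ran from 1.09% to 2.702% and from 1.18% to 2.58% of member UMIs in the enteroendocrine gate, and Rplp2 from 0.74% to 1.57% and from 0.84% to 1.68%. In cells with at least 2 UMIs of Neurog3, Rplp1 took 1.55% (1.51% to 1.60%) of member UMIs in set 1 and 1.26% (1.202% to 1.325%) in set 2. In cells with 0 UMIs of Neurog3 it took 2.51% (2.45% to 2.57%) and 2.39% (2.34% to 2.44%), close to the 2.63% and 2.64% of ungated cells. Rplp0 in the same cells took 1.95% and 1.84% with Neurog3 and 1.80% and 1.86% without.

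A split by Trpa1, an ion channel of serotonin-releasing enterochromaffin cells, was also made after seeing the data. Rplp1 was at 3664 and 3951 CPM in cells with at least 2 UMIs of Trpa1 (78 and 61 cells) and at 2730 and 2564 CPM in cells with 0 (158 and 170 cells). Rplp0 was at 2095 and 2271 CPM with Trpa1 and at 3368 and 2746 CPM without. As a part of member UMIs, Rplp1 took 2.99% and 3.22% with Trpa1 and 1.56% and 1.74% without. Rplp0 took 1.71% (1.64% to 1.78%) with and 1.93% (1.88% to 1.97%) without in set 1, and its intervals overlapped in set 2, at 1.85% (1.78% to 1.92%) and 1.87% (1.82% to 1.91%). Gm10073, the gene that shares sequence with Rplp1, was at 23.3 and 27.3 CPM over the enteroendocrine gate and at 84.6 and 74.4 CPM in ungated cells, under 1% of Rplp1 in each case. Whether reads shared with such copies add to the spread of Rplp1 was not tested.

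**Figure D4:**
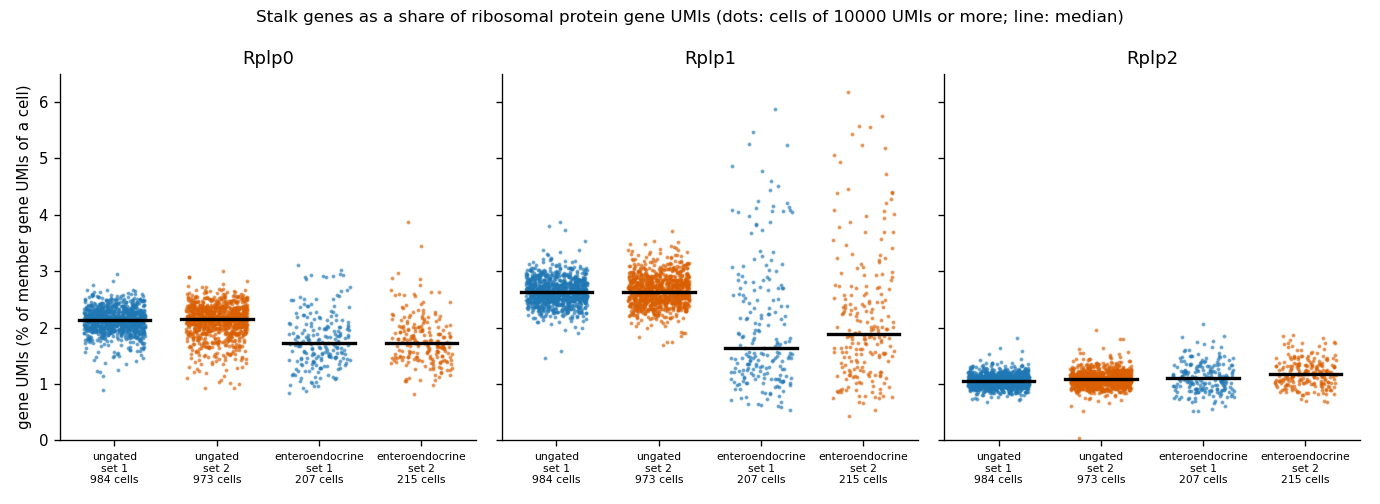
UMIs of the stalk genes Rplp0, Rplp1 and Rplp2 as a percentage of the member UMIs of a cell (vertical axis), for ungated and enteroendocrine-gated cells of at least 10000 UMIs in each set; dots are cells and lines medians. Rplp1 spreads from 0.55% to 5.87% and from 0.42% to 6.17% in the enteroendocrine gate, wider than in ungated cells and wider than Rplp0 or Rplp2.

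In the enterocyte gate, named for the cells that take up nutrients, the member share was 30.6% in set 1 (30.62% to 30.66%) and 21.7% in set 2 (21.64% to 21.69%). The log2 ratio to ungated cells was below 0 for 83 of 83 members in each set, beside 59.6% and 60.5% of all genes. The medians of members were −0.16 and −0.57, against −0.06 and −0.17 over all genes. At least 1.5-fold lower were 0 of 83 in set 1, beside 0.583% of all genes, and 39 of 83 in set 2, beside 21.9%. None was that much higher, beside 5.66% and 13.6% of all genes. The median marker level of the gate differed too, at 73.9 in set 1 and 318.5 in set 2; its part in these counts cannot be told apart from the sets, and the shares along the marker level itself are given next. The count of 39 in set 2 became 82 when levels were scaled to UMIs without mitochondrial genes and members, which moves every gene by about the same factor: the median of all genes went from −0.17 to −0.36, and 34.4% of all genes were then lower. With a mitochondrial limit of 10% it was 0, beside 2.34% of all genes.

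Along that level, the member share was lowest in the upper ranges in both sets. It was 30.1% and 31.1% below 10 marker UMIs per 10000, where set 1 had 27 cells with a median of 3731 UMIs, and 33.95% and 32.7% at 10 to 25. It was 34.3% and 32.2% at 25 to 50 marker UMIs per 10000, 31.3% and 29.4% at 100 to 200, 27.0% and 22.9% at 200 to 400, and 17.3% (17.25% to 17.34%) and 14.7% (14.66% to 14.72%) at 400 or more, with 80 and 138 cells. Without the marker genes in the total, the share of the top range was 18.3% and 15.5%. Cells of the top range had medians of 34636 and 34346 UMIs, no fewer than ungated cells. Their median mitochondrial share was higher, 14.3% and 14.4%, and its part in the result was not tested.

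**Figure D5:**
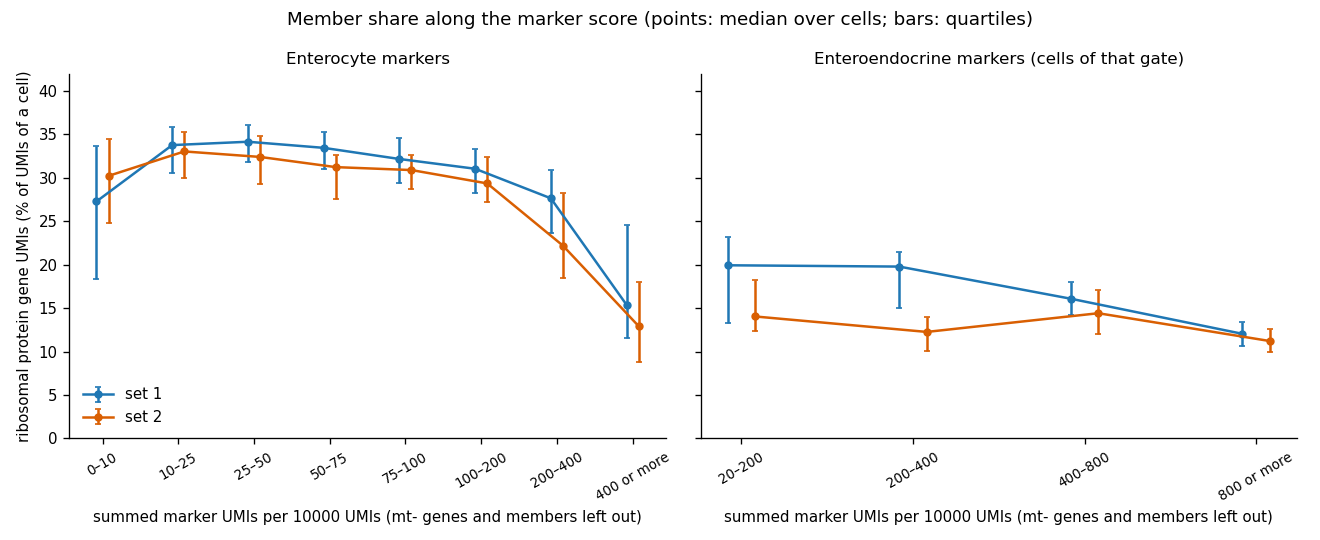
Median member share per cell (points, with quartiles as bars) along the summed enterocyte markers (left; cells outside the enteroendocrine, goblet and Paneth, revival and tuft gates) and along the enteroendocrine markers within that gate (right), by set; the horizontal axis gives marker UMIs per 10000 UMIs counted without mitochondrial genes and members. Medians lie between 29.4% and 34.2% over the ranges from 10 to 200 on the left and reach 15.4% and 12.9% in the top one; within the enteroendocrine gate they reach 12.04% and 11.2%.

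In the top enterocyte range, which was set at 400 after seeing the data, 81 of 83 members in set 1 and 83 of 83 in set 2 were at least 1.5-fold lower than in ungated cells, beside 37% and 38.5% of all genes. None was that much higher, beside 19.4% and 18.2%. The median log2 ratio was −0.98 and −1.13, against −0.26 and −0.29 over all genes. Rpsa, also known as a laminin receptor, went from 5773 CPM (interval 5748 to 5797) down to 2178 CPM (interval 2121 to 2236) in set 1, and in set 2 from 5473 CPM (interval 5448 to 5498) down to 1791 CPM (interval 1753 to 1829), a log2 ratio of −1.41 and −1.61. Rpl3, near the peptidyl transferase centre, had −1.34 and −1.59, and Rpl14 had −1.35 and −1.56. The smallest differences past 1.5-fold in both sets were those of Rpl10 (−0.60 and −0.74), Rpl38 (−0.59 and −0.76), Rps29 (−0.66 and −0.78) and Rpl7a (−0.65 and −0.80). The 2 members under 1.5-fold in set 1, named after their values were seen, were Rpl36al (−0.57) and Rps19bp1 (−0.57).

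Individual members stood at different places in the enteroendocrine and the top enterocyte list; both use the same ungated cells, so their values are only set side by side. Rpl39 had −1.67 and −1.75 in the enteroendocrine gate and −0.78 and −0.90 in the top enterocyte range. Rpl26 had −0.49 and −0.62 in the first and −0.82 and −0.95 in the second. Rplp2 had −1.10 and −1.10, and −1.20 and −1.40. Large subunit genes took 56.9% and 57.1% of member UMIs in the top enterocyte range.

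Other genes of protein synthesis were read from lists. Of 78 genes of the mitochondrial ribosome, a separate ribosome that makes proteins of the respiratory chain, 61 reached 50 CPM. In the enteroendocrine gate, 39 of these 61 in set 1 and 41 in set 2 were at least 1.5-fold lower, beside 31.6% and 34.5% of all genes, and 0 that much higher, beside 25.3% and 21.3%. Their medians were −0.72 and −0.72. In the top enterocyte range, 20 and 27 of the 61 were lower, near the 37% and 38.5% of all genes, and 1 and 1 higher, beside 19.4% and 18.2%, with medians of −0.39 and −0.49. A further list held 17 translation factors and related genes of the terminal oligopyrimidine class, so it does not stand for translation factors in general. Of these 17, 10 and 14 were lower in the enteroendocrine gate, beside 31.6% and 34.5% of all genes, and 13 and 15 in the top enterocyte range, beside 37% and 38.5%. Among them, Eef1b2, part of the factor that reloads elongation factor 1A, had −1.66 and −1.78 in the enteroendocrine gate, while Tpt1 had −0.23 and −0.46 there and 0.27 and 0.31 in the top enterocyte range.

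Of 32 ribosome biogenesis genes, 13 reached 50 CPM and 19 did not. Of the 13, 12 were at least 1.5-fold lower in the enteroendocrine gate in each set, beside 31.6% and 34.5% of all genes, with medians of −1.17 and −1.19. The exception, Ubtf, a factor of ribosomal RNA transcription, had 0.05 and 0.00, and was picked out after its values were seen. Of the 19 genes under 50 CPM, 17 were below 0 in the enteroendocrine gate in each set. Of the 2403 genes at 50 CPM or more, 54.8% and 58.0% were below 0 there. The share for all genes under 50 CPM was not computed. Over all genes at 10 CPM or more the median was 0.27 and 0.17. In the top enterocyte range 12 of 13 were lower in each set, beside 37% and 38.5% of all genes, with medians of −1.83 and −2.18 and Nop10 as the exception (−0.46 and −0.37). Ncl, nucleolin, went from 1079 CPM to 478 CPM in the enteroendocrine gate and 229 CPM in the top enterocyte range of set 1, and from 1067 CPM to 513 and 224 CPM in set 2. Of ribosomal proteins whose symbols the rule did not take, Rack1, a scaffold on the small subunit, had −1.25 and −1.36 in the enteroendocrine gate. Rack1 is also counted in the list of translation factors and related genes. Fau, made as a fusion with a ubiquitin-like protein, had −0.51 and −0.73. In the top enterocyte range Fau had −0.06 and −0.10, unlike all 83 members, none of which lay above −0.57 in set 1 or above −0.74 in set 2.

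Across cell cycle ranges of ungated cells, no member passed 1.5-fold, and the median differences were small. Ungated cells were split by the summed UMIs of 39 S-phase genes and 52 G2 and M-phase genes at the quantile of 0.667 of each. The member share was 34.5% and 32.99% where both sums were low (485 and 445 cells), 33.4% and 32.4% where S genes alone were high (267 and 379), 34.5% and 31.9% where G2 and M genes alone were high (411 and 235), and 33.5% and 30.9% where both were high (84 and 59). In set 1, 0 of 83 members differed from the low range by 1.5-fold in either direction, beside 2.83%, 1.66% and 4.12% of all genes for the S, the G2 and M, and the combined range. In set 2 it was also 0 of 83 in each, beside 3.16%, 3.2% and 6.33%. The medians of members were −0.05, 0.00 and −0.04 in set 1 and −0.03, −0.05 and −0.09 in set 2. Below 0 were 71, 37 and 68 of 83 members in set 1, beside 47.1%, 52.9% and 50.3% of all genes. In set 2 it was 64, 79 and 82 of 83, beside 54.7%, 51.9% and 49.6%.

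The split used ranges of a score, not called phases, and it depended on the cells that entered. With the ranges taken over all kept cells, the medians of members lay between 0.30 and 0.45, with 4 members at least 1.5-fold higher in the S range of set 2, beside 10.9% of all genes, while those of all genes lay between 0.01 and 0.07. Without the mitochondrial limit, the medians lay between 0.13 and 0.54, with 11 members at least 1.5-fold higher in the G2 and M range of set 1, beside 15% of all genes, and those of all genes lay between 0.17 and 0.42. The low range of ungated cells had a median of 24612 UMIs in set 1, against 37531 in the G2 and M range, and ungated cells of 1000 to 5000 UMIs had a member share of 25.1% and 23.6%. Ungated cells with high stem cell markers had 34.3% and 32.4%, and the other ungated cells 34.0% and 32.4%.

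Between the barcode sets, most members were slightly lower in set 2: 75 of 83 over all kept cells, 69 of 83 in ungated cells and 75 of 83 in the enteroendocrine gate, with 8, 14 and 8 higher. Of all genes tested, 47.6%, 45.2% and 62.9% were lower in set 2 in the same comparisons. The share over all kept cells was 31.5% (31.53% to 31.55%) in set 1 and 28.3% (28.28% to 28.31%) in set 2. As a log2 ratio of set 2 to set 1, the median member was at −0.18 over all kept cells, −0.10 in ungated cells and −0.16 in the enteroendocrine gate, beside medians of 0.01, 0.02 and −0.05 over all genes tested. In these comparisons 0 of 83 members passed 1.5-fold in either direction, beside 4.2%, 4.08% and 4.04% of all genes. Over all kept cells the values ran from Rpl3, with 3174 CPM (interval 3160 to 3188) in set 1 and 2658 CPM (interval 2644 to 2672) in set 2, a ratio of −0.26, to Rps29, a small subunit protein, with 4725 CPM (interval 4708 to 4742) and 5251 CPM (interval 5231 to 5271), a ratio of 0.15.

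In the enterocyte gate the median of the same ratio was −0.51, beside −0.07 over all genes tested. There 19 of 83 members were at least 1.5-fold lower, beside 12.4% of all genes, with 0 of 83 higher, beside 8.82%. Within single marker ranges the share was also lower in set 2: 33.7% and 30.9% at 50 to 75 per 10000, 33.2% and 30.7% at 75 to 100, 31.3% and 29.4% at 100 to 200, 27.0% and 22.9% at 200 to 400, and 17.3% and 14.7% at 400 or more. Each set is 1 pool of cells, so these differences have no replicate to be measured against.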

How the data were processed

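Single-cell 3′ RNA libraries of mouse small intestinal organoids were sequenced by the authors. The deposited files hold whole-number UMI counts per gene and barcode, not normalized. Per the submitters' processing notes, bcl2fastq 2.20.0, Cell Ranger 3.1.0 and STAR 2.7.3a were used. Genome build, annotation and barcode calling are not given in the sources used here. Of the identical files of both samples, 1 copy was used, and the other was left out.

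Counts were summed over cells of a gate and barcode set, scaled to 1000000 UMIs (CPM) and compared as log2 ratios with a pseudocount of 1 CPM, among 2403 genes at 50 CPM or more. Intervals are exact Poisson (levels) or Clopper-Pearson (shares) at 95%. UMIs are not fully independent molecules, and intervals cover counting error only. For genes without a UMI the level of 3 UMIs is given as an upper limit. Gates needed 3 detected markers. Barcodes passing several gates were left out; no doublet caller was run, and leaving out the 5% of barcodes with most UMIs was an alternative. Cycle ranges were cut at the quantile of 0.667 of the S and G2M sums (30.04 and 142.04 UMIs per 10000). Members, markers, lists and tests were chosen with earlier results of these data known.

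Named members were the 5 highest and 5 lowest, named paralogs with their partners, the stalk genes and Rpsa, Rps19bp1, and in each ratio the 4 largest and 4 smallest differences past 1.5-fold in both sets; others are said to be chosen after their values were seen. Some genes that this rule takes are not reported here. The ratio was tested on simulated counts for the enteroendocrine comparison of set 1 (2403 genes): 200 of 200 changed genes were recovered and 3 of 2203 unchanged genes passed 1.5-fold, with a median absolute error of 0.0485 (log2). These counts held counting error only, and the planted changes were well past 1.5-fold, so near-complete recovery was built in. Levels were scaled to the planned depth. The simulation therefore checks the calculation, not variance between cells or pools, nor shifts of the total. Python 3.11.15, numpy 2.4.6, scipy 1.17.1 and pandas 2.3.3 were used, with matplotlib 3.10.9 for plots. Alternatives covered the mitochondrial limit, depth, pseudocount, scaling, gate thresholds and cycle ranges.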

Additional observations from a re-analysis of the deposited data

Results flagged for a closer look

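Barcodes left out for over 20% mitochondrial UMIs, which entered only the alternative with no mitochondrial limit, still carried ribosomal protein UMIs. Members made up 26.5% of their non-mitochondrial UMIs in set 1 (6110 barcodes) and 21.1% in set 2 (3671 barcodes), against 34.95% and 31.3% in kept cells. The log2 levels of 83 members in these barcodes and in kept cells had a Pearson r of 0.98 in set 1 and 0.96 in set 2, across genes of the same library. As a part of member UMIs, single members differed by up to 1.39 on the log2 scale (Rpsa, set 2, higher in the left-out barcodes) and 0.70 (Rpl36, set 1, higher), and Rps15a had −0.41 and −0.66. The 9 rows named as pseudogenes of members, which the gene rule leaves out, summed to 177.6 CPM over kept cells, or 0.0591% of the member UMIs, and 0 of them reached 50 CPM. Rpl10-ps3 (46.5 CPM), Rpl36a-ps1 (36.0 CPM) and Rpl27-ps3 (33.3 CPM) were the highest.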

How the results depend on the processing

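The enteroendocrine difference kept its direction under every alternative that was run: 728 of 728 values, from 26 members in both sets under 14 alternatives, lay below 0, between 69 and 83 members of set 1 and between 73 and 83 of set 2 were at least 1.5-fold lower, and the median lay between −1.56 and −0.79 (set 1) and between −1.60 and −0.92 (set 2). Scaling to UMIs without mitochondrial genes and members moved the median of all genes in that comparison to −0.56 (set 1) and −0.63 (set 2), with the members at −1.56 and −1.60. Over all kept cells the member share of 31.5% in set 1 and 28.3% in set 2 became 32.6% and 30.6% with a mitochondrial limit of 10%, 24.5% and 22.8% with no limit, 31.4% and 28.2% without the 5% of barcodes with most UMIs, 31.6% and 28.3% with at least 5000 UMIs, 34.95% and 31.3% of non-mitochondrial UMIs, and 29.4% and 26.4% as a mean over barcodes. The enterocyte gate depended on the settings. Its 39 members lower in set 2 became 0 with the 10% limit, 60 with no limit, 82 with scaling to UMIs without mitochondrial genes and members, 20 with the mean over barcodes, 0 with thresholds halved, 76 with thresholds doubled, 83 with a threshold of 400 and 6 among barcodes of 10000 to 20000 UMIs. In set 1 the count of 0 became 13 with thresholds doubled and 79 with a threshold of 400. The 19 members lower in set 2 than in set 1 within the enterocyte gate became 0 with the 10% limit, 11 with no limit, 66 with that scaling and 9 with the mean over barcodes. Apart from the shift of the gate with its threshold, the cause was not tested. The threshold of 400 and the window of 10000 to 20000 UMIs were added after seeing the data. No paired analysis was possible because the matrix counts as 1 sample and no replicate exists. Leaving out a replicate was likewise not possible. At this depth counting error is small for all members but Rpl3l; differences between pools of cells are not covered by it.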
